A study of Homo sapiens with 12 samples.

Results

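The 9 genes described here are growth-restraining genes known as direct targets of the transcription factor RFX7, namely PDCD4, PIK3IP1, PNRC1, TSPYL1, TSPYL2, ABAT, KLHL24, IP6K2 and FAM214A. They were taken by gene name, and all 9 were found among the 23195 genes listed for each Nutlin-3a comparison and in both other tables. They were chosen by their known target status, with the siRFX7 and Nutlin-3a fold changes of these same libraries already in view, so the values below are a description of the genes and support no claim that RFX7 targets as a class respond this way.

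RNA was taken from HCT116 cells, a human colorectal carcinoma line with intact p53, in 4 groups of 3 libraries. The groups were a control siRNA (siControl) with DMSO, siControl with Nutlin-3a, an siRNA against RFX7 (siRFX7) with DMSO, and siRFX7 with Nutlin-3a. All cells were transfected, and the drug or its solvent DMSO was present for 24 h at a Nutlin-3a dose of 10 µM. The labels do not say how many siRNA sequences target RFX7 or whether replicates were separate cultures, so errors may cover technical spread only. All 6 epithelial markers examined were listed, with mean normalized counts from 2585 for CDH1 to 80338 for KRT8. Among markers of other cell types, PTPRC, CD3E and PECAM1 were not listed, while VWF had a mean of 13.5, COL1A1 of 441.1 and COL3A1 of 2.08. COL1A1 was higher with siRFX7 by 0.36 in DMSO and 0.52 in Nutlin-3a (log2, authors' deposited tables). Epithelial markers were also called with siRFX7 there. In DMSO, CDH1 (0.16) and KRT19 (0.34) were higher and KRT18 (-0.41) and CLDN7 (-0.40) lower. In Nutlin-3a, CDH1 (0.26) was higher and KRT8 (-0.32), KRT18 (-0.45) and KRT19 (-0.33) lower. Among epithelial markers KRT19 alone had a called difference of Nutlin-3a effects between the siRNAs, at -0.67. The part of these markers in the results below was not tested. RFX7 itself was at 944 ± 37.0 normalized counts (model SE, n = 3) with DMSO and 1332 ± 50.4 with Nutlin-3a in siControl cells, and 185 ± 10.1 and 302 ± 14.4 in siRFX7 cells. The knockdown thus left 19.6% of the RFX7 transcript in DMSO and 22.6% in Nutlin-3a. These means, and those below, were computed from the authors' deposited tables, which hold group statistics rather than library values. Mean normalized counts summed to 26801484 over genes, and the depth of single libraries is unknown.

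RFX7 belongs to a family of winged-helix transcription factors that bind X-box elements in promoters, built from paired half-sites. Nutlin-3a blocks the binding of MDM2 to p53 and so stabilises p53, a transcription factor that restrains growth under stress. RFX7 acts downstream of p53 as an activator of genes that slow growth, and it also maintains some of them in cells without added stress. The 9 genes act at different points: PDCD4 on translation, PIK3IP1 on PI3K signalling, PNRC1, TSPYL1 and TSPYL2 in the nucleus, KLHL24 in ubiquitin ligation, and IP6K2 and ABAT in small-molecule metabolism.

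The promoter letters are shown because RFX proteins contact X-box half-sites. The half-site GTTGCNA, which includes GTTGCTA and GTTGCCA, was searched on both strands (its other-strand form is TNGCAAC) in the RefSeq promoter windows of GRCh38.p14, from 250 bases before to 50 after each annotated start. All 9 genes matched the promoter table, FAM214A under its newer symbol ATOSA, with 16 windows in all. A match was present in 3 of the 16 windows, 1 each for IP6K2, TSPYL1 and FAM214A, against 9.21% of all 35116 windows of this length. All 3 matches read GTTGCTA or its complement, a form found in 2.85% of all windows. After the sequences were seen, each window was also compared with the palindrome GTTGCCATGGCAAC, the half-site GTTGCCA followed by its complement. An ABAT window had 12 of its 14 letters, which 1.13% of all windows reach, and a FAM214A window other than that of the half-site had 11, which 3.35% reach. In the lines below the capitals mark the half-site or the stretch aligned to the palindrome, and each sequence is written along its gene's strand.
IP6K2, chr3:48717311-48717340, minus strand: tcctggcacccTAGCAACagcgcctttcag
TSPYL1, chr6:116280052-116280081, minus strand: gtaaaattactGTTGCTAtgggtaaattca
FAM214A, chr15:52652066-52652095, minus strand: ctgtgagtgctGTTGCTAtgtgcgctctta
FAM214A, chr15:52679463-52679492, minus strand: gcggcggcATTGCCATAGTAACcgggcgcc
ABAT, chr16:8712782-8712811, plus strand: tcccattgGTTGCCTCGGCAACggcgtaat
The matches lay upstream of the annotated start, for the 3 half-sites by 108 bases in IP6K2, 140 in TSPYL1 and 44 in FAM214A. PDCD4, PNRC1, TSPYL2, KLHL24, PIK3IP1 and ABAT had no half-site match in their windows, which says only that these letters are not there. Among 10 other RFX7 targets in the table, a match was present in 3 of 22 windows, against the same 9.21% of all windows. These matches were in MXD4, REV3L and TOB1.

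With the control siRNA, Nutlin-3a raised 8 of the 9 genes in the authors' deposited table (adjusted p below 0.05), and TSPYL2 was the exception. Their median log2 fold change was 1.20, against 0.02 over all genes listed, and 22% of all genes were called higher in that comparison. With siRFX7, 4 of the 9 were called higher, where 21.7% of all genes were, and 2 were called lower, where 19.7% of all genes were. The median of the 9 was then 0.27, against -0.02 over all genes. Since the genes were chosen with these contrasts known, nothing is read from the counts. In bulk RNA, fewer cells expressing a gene and less RNA per cell cannot be told apart.

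**Figure D1:**
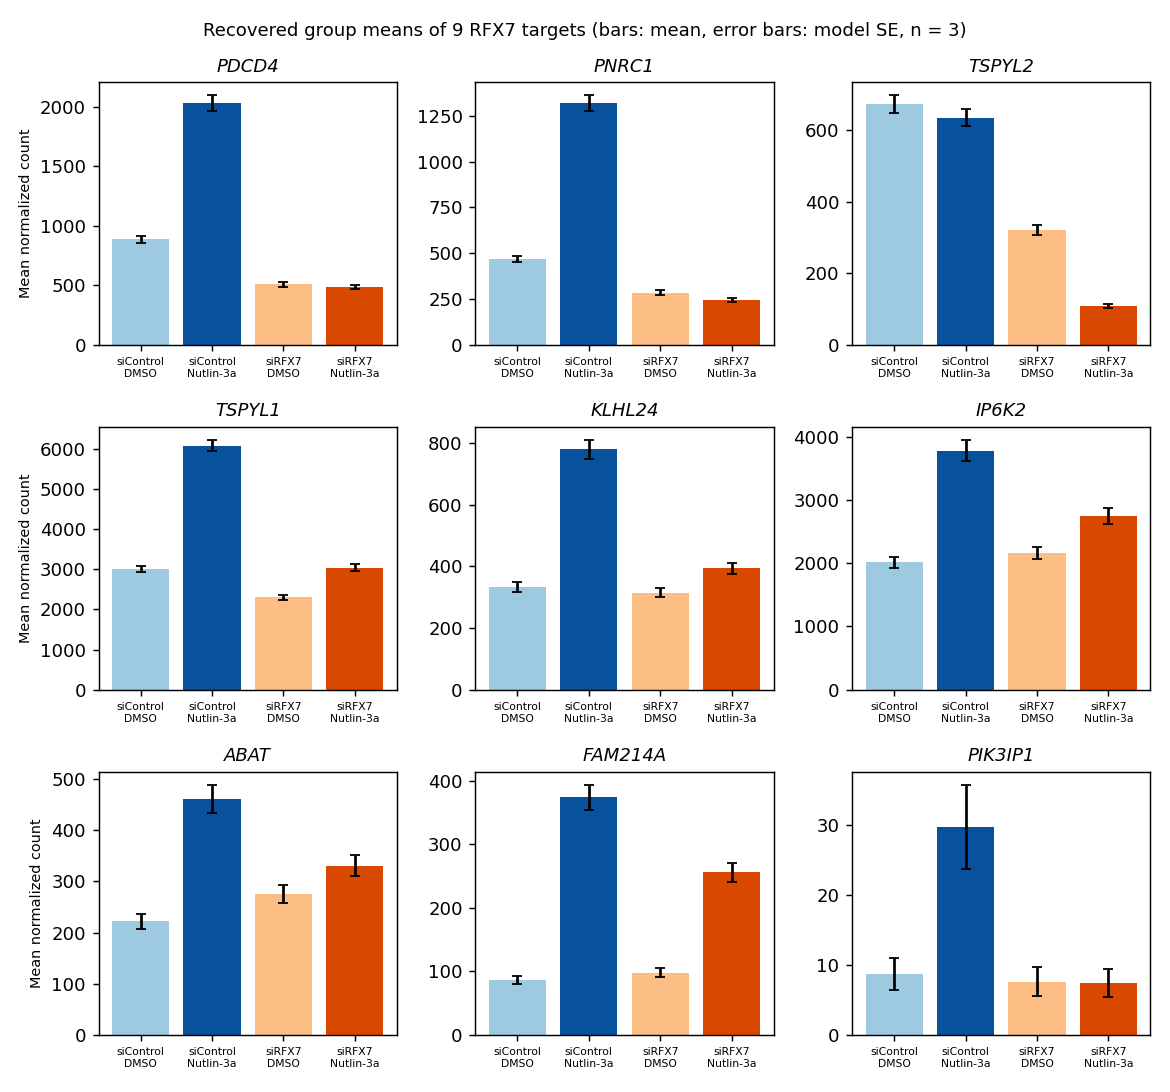
Recovered mean normalized counts of the 9 genes in the 4 groups (bars) with the standard error of the authors' model (error bars, n = 3), each panel on its own axis from 0. The siControl Nutlin-3a bar is the tallest in 8 panels; TSPYL2 has its highest bar in siControl DMSO and falls to 108 in siRFX7 Nutlin-3a.

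PDCD4 and PIK3IP1 restrain growth in the cytoplasm and at the membrane. PDCD4 (ENSG00000150593, chromosome 10 from 110871795 to 110900006, plus strand, GRCh38) encodes a protein that binds the helicase eIF4A and inhibits translation initiation. Its mean was 885 ± 32.5 normalized counts with DMSO and 2032 ± 68.5 with Nutlin-3a in siControl cells, and 509 ± 20.5 and 487 ± 19.8 in siRFX7 cells (model SE, n = 3). Both knockdown groups lay below both control groups, and they did not differ from each other beyond their error. In the authors' deposited tables the Nutlin-3a effect on PDCD4 was 1.20 on the log2 scale with siControl (standard error 0.07) and -0.06 with siRFX7 (standard error 0.08, DESeq2 adjusted p 0.595). Thus a 2.30-fold rise was followed by a ratio of 0.957 (95% interval 0.855 to 1.07) once RFX7 was depleted. The gene BBIP1 on the other strand shares 1277 of the 4547 exonic bases of PDCD4. BBIP1, by the authors' deposited tables, fell by 0.39 with Nutlin-3a in siControl and rose by 0.44 with siRFX7 in Nutlin-3a, both opposite to PDCD4. The strand setting of the counting is not given in the sources used here, so reads from the shared bases cannot be told apart.

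PIK3IP1 (ENSG00000100100, chromosome 22 from 31281593 to 31292534, minus strand) encodes a transmembrane protein that inhibits the catalytic subunit of PI3K. It was the least abundant of the 9 by mean normalized count, at 8.67 ± 2.27 with DMSO and 29.7 ± 6.02 with Nutlin-3a in siControl cells, and 7.59 ± 2.06 and 7.41 ± 2.03 in siRFX7 cells (model SE, n = 3). Only the siControl Nutlin-3a group stood apart, and the other 3 groups did not differ beyond their error. The Nutlin-3a effect on PIK3IP1 in the authors' deposited tables was 1.78 with siControl (standard error 0.48) and -0.03 with siRFX7 (standard error 0.55). The difference of -1.81 was not called, with a 95% interval from -3.25 to -0.38 and an adjusted p of 0.141 over all genes (z test). At this depth the size of that difference is poorly fixed.

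PNRC1, TSPYL1 and TSPYL2 encode nuclear proteins. PNRC1 (ENSG00000146278, chromosome 6 from 89080751 to 89085160, plus strand) encodes a nuclear receptor coactivator that also brings decapping enzymes to the nucleolus and lowers ribosomal RNA processing. Its mean was 468 ± 18.2 normalized counts with DMSO and 1321 ± 42.9 with Nutlin-3a in siControl cells, and 285 ± 12.7 and 245 ± 11.4 in siRFX7 cells (model SE, n = 3). The response of PNRC1 changed sign with the knockdown. In the authors' deposited tables Nutlin-3a raised it by 1.50 on the log2 scale with siControl (standard error 0.07) and lowered it with siRFX7, at -0.22 (standard error 0.09, DESeq2 adjusted p 0.0468). The fall was near the threshold, and under a Benjamini-Yekutieli adjustment its p was 0.498.

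TSPYL1 and TSPYL2 belong to the nucleosome assembly protein family, whose members bind histones, and TSPYL2 is known to slow the cell cycle. TSPYL1 (ENSG00000189241, chromosome 6 from 116276578 to 116279903, minus strand) had means of 3004 ± 75.6 normalized counts with DMSO and 6083 ± 146 with Nutlin-3a in siControl cells, and 2298 ± 59.4 and 3045 ± 76.5 in siRFX7 cells (model SE, n = 3). TSPYL1 in siRFX7 Nutlin-3a and in siControl DMSO differed by less than their error, by 0.02 on the log2 scale (95% interval -0.08 to 0.12). Its Nutlin-3a effect was 1.02 with siControl and 0.41 with siRFX7 (standard error 0.05 each, authors' deposited tables), so a smaller rise was still called. DSE on the other strand shares 589 of the 3326 exonic bases of TSPYL1. DSE, by the authors' deposited tables, rose by 1.22 with siControl and 1.20 with siRFX7 on Nutlin-3a, and fell by 0.41 and 0.44 with siRFX7 in the respective treatments. DSE thus moved in the same direction as TSPYL1 in each of these comparisons. Its part in the TSPYL1 values was not tested.

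TSPYL2 (ENSG00000184205, chromosome X from 53082367 to 53088540, plus strand) was the one gene whose RNA did not rise with Nutlin-3a in siControl. Its mean was 673 ± 25.4 normalized counts with DMSO and 635 ± 24.2 with Nutlin-3a in siControl cells, and 320 ± 14.2 and 108 ± 6.85 in siRFX7 cells (model SE, n = 3). The 2 control groups did not differ beyond their error, and the 2 knockdown groups lay below them and apart from each other. In the authors' deposited tables the Nutlin-3a effect on TSPYL2 was -0.08 with siControl (95% interval -0.24 to 0.07, DESeq2 adjusted p 0.420) and -1.56 with siRFX7 (standard error 0.11). The level with both treatments was 16.1% of that in siControl DMSO. Thus the difference of -1.48 for TSPYL2 consisted of a fall that appeared with siRFX7, whereas for the other called genes it was a rise in siControl that became smaller, was lost or, for PNRC1, turned into a fall.

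KLHL24 (ENSG00000114796, chromosome 3 from 183635568 to 183684477, plus strand) encodes a substrate adaptor of cullin 3 ubiquitin ligases, known for the turnover of keratin 14 in skin. Its mean was 332 ± 15.3 normalized counts with DMSO and 779 ± 30.7 with Nutlin-3a in siControl cells, and 314 ± 14.7 and 393 ± 17.5 in siRFX7 cells (model SE, n = 3). The DMSO groups did not differ beyond their error, and the siRFX7 Nutlin-3a group lay slightly above them. KLHL24, by the authors' deposited tables, rose by 1.23 with siControl and by 0.32 with siRFX7 on Nutlin-3a (standard error 0.09 each).

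IP6K2 and ABAT are enzymes. IP6K2 (ENSG00000068745, chromosome 3 from 48688003 to 48740353, minus strand) phosphorylates inositol hexakisphosphate to a pyrophosphate and is known to promote apoptosis. Its mean was 2011 ± 92.9 normalized counts with DMSO and 3777 ± 171 with Nutlin-3a in siControl cells, and 2159 ± 99.6 and 2749 ± 126 in siRFX7 cells (model SE, n = 3). IP6K2 rose under both siRNAs, by 0.91 with siControl and 0.35 with siRFX7 in the authors' deposited tables (standard error 0.09 each). ABAT (ENSG00000183044, chromosome 16 from 8674565 to 8784575, plus strand) encodes the transaminase that degrades GABA. ABAT was at 222 ± 14.9 normalized counts with DMSO and 461 ± 28.0 with Nutlin-3a in siControl cells, and 275 ± 17.8 and 331 ± 20.8 in siRFX7 cells (model SE, n = 3). Its rise of 1.05 with siControl (standard error 0.13) stood against 0.27 with siRFX7, which was not called in the authors' deposited table (DESeq2 adjusted p 0.0870). TMEM186 on the other strand shares 152 of the 9744 exonic bases of ABAT and rose by 0.43 with Nutlin-3a in siControl in the authors' deposited table. Its other values there were not called but had the same sign as those of ABAT. They were 0.14 for Nutlin-3a with siRFX7, and 0.05 in DMSO and -0.25 in Nutlin-3a for siRFX7 over siControl. The part of TMEM186 in the ABAT values was not tested.

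FAM214A (ENSG00000047346, chromosome 15 from 52581317 to 52709817, minus strand), now named ATOSA, has a less well described function. Its mean was 85.8 ± 6.59 normalized counts with DMSO and 373 ± 20.1 with Nutlin-3a in siControl cells, and 97.2 ± 7.17 and 256 ± 14.7 in siRFX7 cells (model SE, n = 3). FAM214A had the largest rise of the 9 with Nutlin-3a under both siRNAs, 2.12 with siControl and 1.40 with siRFX7 in the authors' deposited tables (standard errors 0.14 and 0.13). Even with RFX7 depleted, its Nutlin-3a level was 298% of that in siControl DMSO, the highest such share of the 9.

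**Figure D2:**
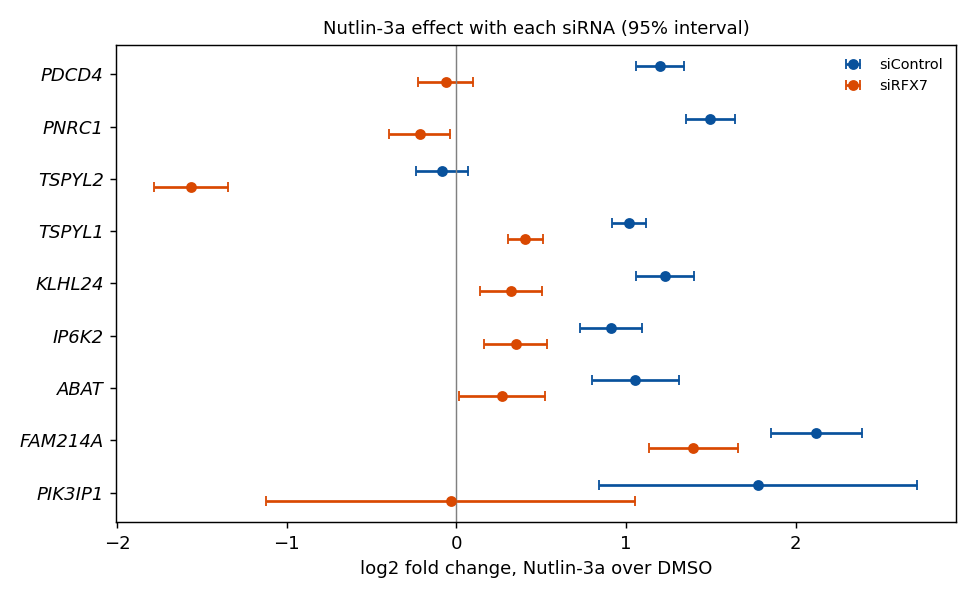
The log2 fold change of Nutlin-3a over DMSO for each of the 9 genes with siControl (blue) and siRFX7 (orange), with 95% intervals from the deposited standard errors. The siRFX7 point lies to the left of the siControl point for each gene, from 1.40 for FAM214A down to -1.56 for TSPYL2, and the intervals of PIK3IP1 are the widest.

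The difference of Nutlin-3a effects (siRFX7 minus siControl) was below 0 for all 9 genes and called for 8, PIK3IP1 being the exception, by a two-sided z test adjusted over 23195 genes. In that test 2.92% of all genes were called below 0, and the median difference was -0.91 for the 9 genes and 0.0034 for all genes. The size was largest among the called genes for PNRC1 at -1.71 (standard error 0.12), followed by TSPYL2 at -1.48 (0.14) and PDCD4 at -1.26 (0.11). These 3 genes had 95% intervals of -1.95 to -1.48, -1.74 to -1.21 and -1.48 to -1.05, so that neighbours in this order overlapped. The other 5 called genes lay between KLHL24 at -0.91 (95% interval -1.16 to -0.66) and IP6K2 at -0.56 (-0.82 to -0.30), with ABAT at -0.79, FAM214A at -0.73 and TSPYL1 at -0.61. Their order is not fixed by the data, since these 5 intervals overlap. As a ratio, the Nutlin-3a response of PNRC1 with siRFX7 was 0.305 times that with siControl, and the response of IP6K2 was 0.678 times.

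**Figure D3:**
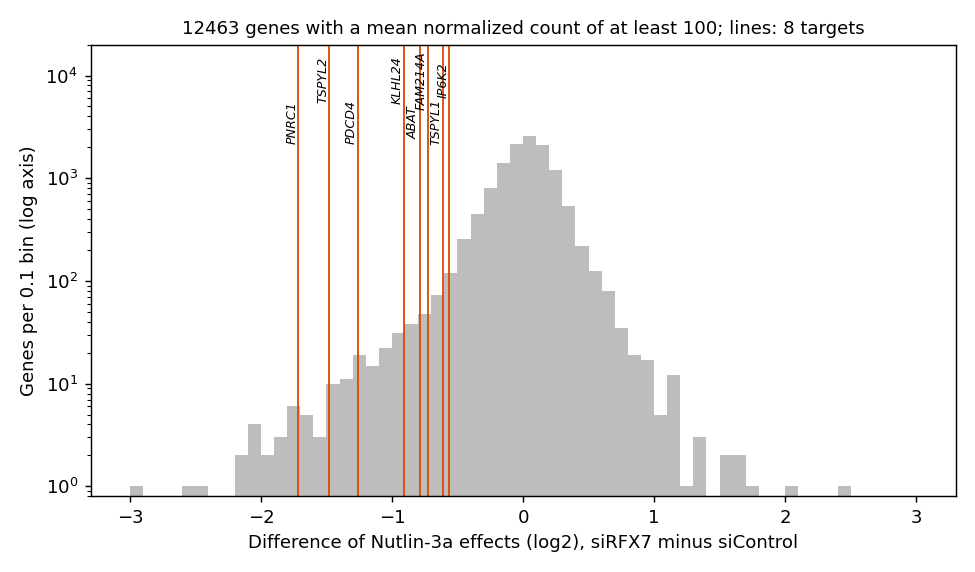
Histogram of the difference of Nutlin-3a effects (log2, siRFX7 minus siControl) over 12463 genes whose mean normalized count was 100 or more, on a log count axis, with 1 gene beyond the left edge drawn in the end bin. Orange lines mark 8 of the 9 genes (PIK3IP1, with a mean of 13.3, is left out), from PNRC1 at -1.71 to IP6K2 at -0.56.

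Dependence on RFX7 at rest divided the genes. In DMSO, siRFX7 lowered 4 of the 9 in the authors' deposited table, where 15.5% of all genes were called lower, and raised 0, where 13.5% of all genes were called higher (DESeq2; ABAT alone was higher at an unadjusted p below 0.05, at 0.0225). By the authors' deposited table it lowered all 9 under the drug, where 13.6% of all genes were called lower. The medians of the 9 were -0.19 in DMSO and -0.998 in Nutlin-3a, against -0.0032 and 0.0022 over all genes. The genes were chosen as known targets with these contrasts in view, so nothing is read from the counts.

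The genes lowered at rest were TSPYL2, PDCD4, PNRC1 and TSPYL1. Their log2 fold changes in DMSO were -1.07 for TSPYL2 (standard error 0.08), -0.80 for PDCD4 (0.08), -0.72 for PNRC1 (0.08) and -0.39 for TSPYL1 (0.05) in the authors' deposited table. The RNA remaining with siRFX7 in DMSO was 47.5% for TSPYL2, 57.4% for PDCD4, 60.9% for PNRC1 and 76.5% for TSPYL1. In Nutlin-3a the remaining shares fell to 17.1% for TSPYL2, 18.6% for PNRC1, 23.9% for PDCD4 and 50.1% for TSPYL1. Of the 19393 genes in all 4 tables, 8.34% were called lower with siRFX7 in both treatments.

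KLHL24, IP6K2, FAM214A, ABAT and PIK3IP1 were not called in DMSO. Their log2 fold changes at rest were -0.08 for KLHL24 (95% interval -0.26 to 0.11), 0.10 for IP6K2 (-0.08 to 0.29) and 0.18 for FAM214A (-0.12 to 0.48), computed from the authors' deposited table. ABAT was at 0.31 (0.04 to 0.57, DESeq2 adjusted p 0.0718) and PIK3IP1 at -0.19 (-1.25 to 0.87), computed from the authors' deposited table. The interval for PIK3IP1 is wide enough to hold the resting fall of PDCD4, so a dependence at rest was not detectable at this depth. With siRFX7 in Nutlin-3a the log2 fold changes were -2.00 for PIK3IP1, -0.99 for KLHL24, -0.55 for FAM214A, -0.48 for ABAT and -0.46 for IP6K2, all called in the authors' deposited table. For KLHL24, IP6K2, FAM214A and ABAT the siRFX7 effects in the 2 treatments also differed from each other, since their difference is the same quantity as the difference of Nutlin-3a effects and was called. This pattern, lower in Nutlin-3a, not called in DMSO and a called difference, was met by 1.06% of the 19393 genes. Under either rescaling of the groups ABAT was called higher at rest, with adjusted p-values of 0.0417 and 0.0270 by the shifted z test.

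**Figure D4:**
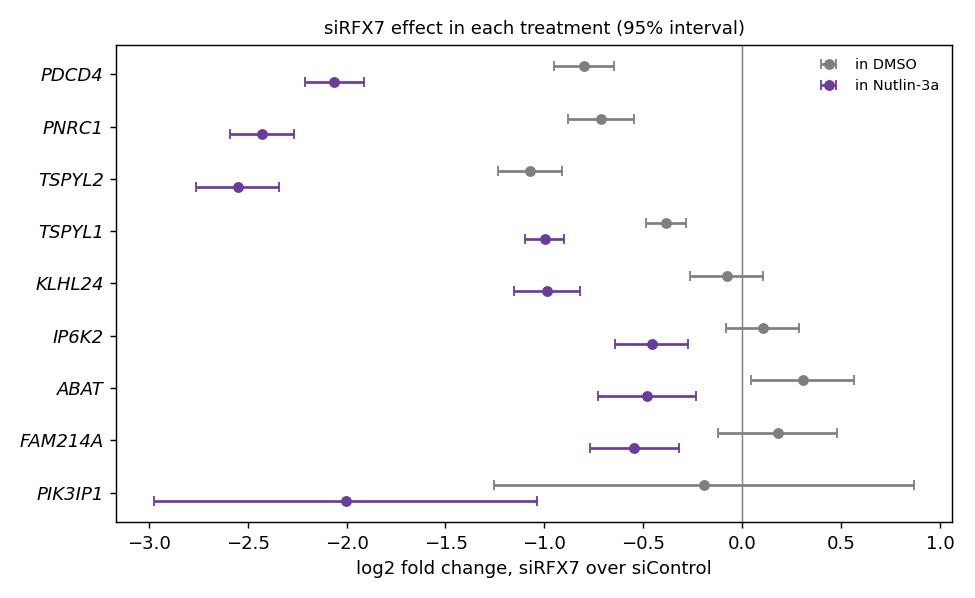
The log2 fold change of siRFX7 over siControl for each of the 9 genes in DMSO (grey) and in Nutlin-3a (purple), with 95% intervals from the deposited standard errors. All purple points lie below 0, from -0.46 for IP6K2 to -2.55 for TSPYL2, while grey points below 0 with intervals clear of it belong to TSPYL2, PDCD4, PNRC1 and TSPYL1.

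The level reached with Nutlin-3a after RFX7 knockdown also separated the genes, set against the resting control level. It was below siControl DMSO for TSPYL2, at -2.64 on the log2 scale (95% interval -2.84 to -2.43), for PNRC1 at -0.93 (-1.10 to -0.76) and for PDCD4 at -0.86 (-1.02 to -0.71). It lay above that level for FAM214A at 1.58 (1.30 to 1.85), ABAT at 0.57 (0.31 to 0.83), IP6K2 at 0.45 (0.27 to 0.64) and KLHL24 at 0.24 (0.06 to 0.42). TSPYL1 and PIK3IP1 had intervals that held 0. No table compares these 2 groups directly, so the intervals rest on the model errors recovered here.

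A list of other RFX7 targets, written from general knowledge with earlier results in view, gave a frame for these values. Of its 12 genes 11 were listed, MAF being the exception. In the authors' deposited tables all 11 rose on Nutlin-3a in control cells and were lower on knockdown under the drug, with medians of 1.13 and -0.92, against calls in 22% and 13.6% of all genes, respectively. The difference of Nutlin-3a effects was called below 0 for 8 of the 11, against 2.92% of all genes, with a median of -1.03. MXD4, a MAX partner that opposes MYC, and RFX5, an activator of MHC genes, had the largest differences at -2.01 and -1.92. SESN3, a sestrin that restrains mTORC1, followed at -1.73 and PIK3R3, a regulatory subunit of PI3K, at -1.69. TP53INP1 was at -1.12, SLC43A2 at -1.03, the cyclin gene CCND1 at -0.78 and the antiproliferative gene TOB1 at -0.67. REV3L, JUNB and OTUD5 were not called, at -0.28, -0.05 and -0.12. In DMSO, siRFX7 lowered 6 of the 11 (MXD4, SLC43A2, JUNB, RFX5, OTUD5 and CCND1) and raised TP53INP1, PIK3R3 and TOB1 in the authors' deposited table, where 15.5% of all genes were called lower and 13.5% higher.

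The closest paralogues of the 9 genes were examined in the same way. PNRC2, a decapping activator, fell by 0.27 with siControl and by 0.72 with siRFX7 on Nutlin-3a in the authors' deposited tables, and its difference of -0.46 was called. TSPYL4, by the authors' deposited tables, rose by 0.37 and 0.32, and its difference of -0.05 had a 95% interval of -0.40 to 0.30, which lies above the interval of TSPYL1 (-0.75 to -0.47). By the authors' deposited tables FAM214B rose by 0.77 and 0.67, with a difference of -0.10 (95% interval -0.35 to 0.15), an interval that overlaps that of FAM214A. IP6K1 had Nutlin-3a effects of -0.01 and 0.10, not called in the authors' deposited tables, and a difference of 0.11 (95% interval -0.06 to 0.27), above the interval of IP6K2. IP6K3, with a mean normalized count of 2.01, was too low for a fold change, and TSPYL5 was not listed. With siRFX7 in Nutlin-3a, PNRC2 fell by 0.42 in the authors' deposited table, and TSPYL4, FAM214B and IP6K1 were not called, at -0.14, 0.18 and -0.04.

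**Figure D5:**
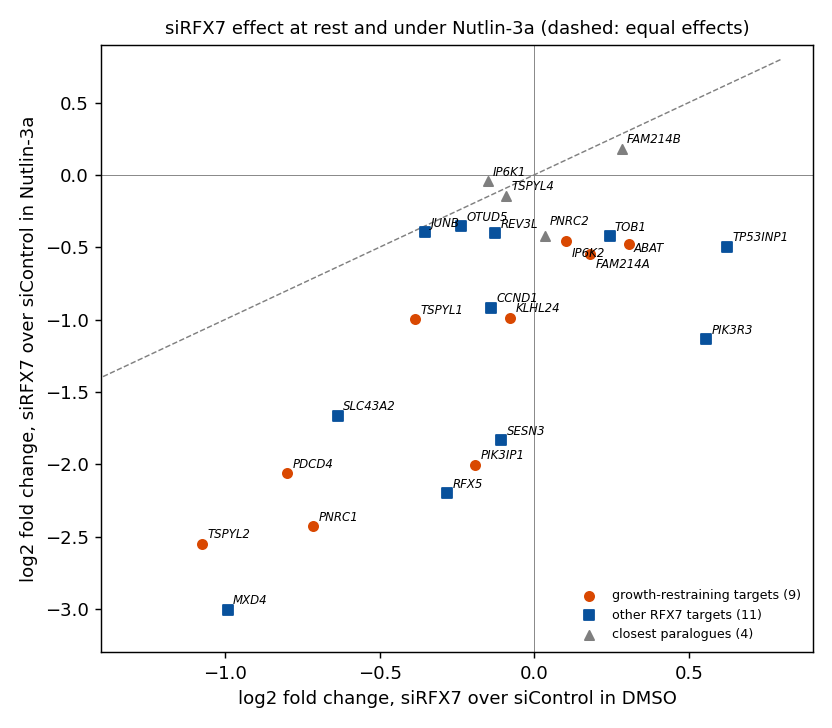
The log2 fold change of siRFX7 over siControl in DMSO (horizontal) against that in Nutlin-3a (vertical) for the 9 growth-restraining genes (orange circles), 11 other RFX7 targets (blue squares) and 4 paralogues (grey triangles), with equal effects on the dashed line. TSPYL2, PDCD4 and PNRC1 lie low and to the left, with MXD4 lower still, and IP6K2, FAM214A and ABAT lie near TOB1.

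The partners through which these proteins act were described from lists written with earlier results known. The 11 genes around PDCD4 were translation initiation factors together with a kinase and ubiquitin ligase subunits. Of these 11, the authors' deposited table for siRFX7 in Nutlin-3a had 3 lower and 1 higher, where 13.6% of all genes were called lower and 15% higher. The 3 lower genes encode initiation factors, and the 1 higher gene encodes a ubiquitin ligase subunit. The difference of Nutlin-3a effects was called for EIF4B at -0.38 and EIF4A3 at 0.26, where 2.92% of all genes were called below 0 and 3.28% above 0. In the authors' deposited table EIF4B, a cofactor of eIF4A, fell by 0.74 with siRFX7 in Nutlin-3a. Of 14 genes for PI3K subunits and brakes around PIK3IP1, Nutlin-3a raised 7 and lowered 4 under each siRNA in the authors' deposited tables, where 22% of all genes were called higher and 21.2% lower with siControl, and 21.7% and 19.7% with siRFX7. The difference was called below 0 in 2 of these 14, INPP5D at -2.40 and PIK3R3 at -1.69, where 2.92% of all genes were. PIK3R3 also belongs to the list of other RFX7 targets. PIK3CD, a catalytic subunit of PI3K, rose on Nutlin-3a by 1.09 with siControl and 1.11 with siRFX7 (authors' deposited tables).

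Of 8 genes for decapping factors and other RNA decay proteins around PNRC1, the difference was called for UPF1 alone, at 0.27. UPF1 is an RNA decay helicase and not itself a decapping factor. In that test 3.28% of all genes were called above 0 and 2.92% below 0. In the nucleosome assembly family of TSPYL1 and TSPYL2, 4 of 6 genes were listed and the difference was called for NAP1L4 alone, at 0.19. Around ABAT, GLUD1 at 0.17 and GLUL at -0.26 were called among 8 genes of the GABA shunt and related amino acid metabolism and transport. SLC6A6, a taurine transporter, rose by 1.12 with siControl and 0.92 with siRFX7 in the authors' deposited tables. Its difference of -0.20 was not called. With siRFX7 it was lower in both treatments, at -0.64 in DMSO and -0.84 in Nutlin-3a (authors' deposited tables). GAD2, at a mean normalized count of 1.10, was too low for a fold change. Around KLHL24, KRT15 was called at -0.84 among 10 listed genes, and KRT14 was not listed. Around IP6K2, ITPKA was called at 0.76 among 13 genes. The median differences of these lists ran from -0.13 in the nucleosome assembly family to 0.22 around IP6K2, against 0.0034 over all genes and -0.91 for the 9 genes.

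The 10 protein-coding genes whose pattern over the 4 groups was nearest to the median of the 9 were sought among genes with a mean of at least 100. Likeness was the Euclidean distance over 3 log2 levels, each relative to siControl DMSO. CYP24A1, which degrades vitamin D, was nearest at 0.168, with levels of 1.35 for Nutlin-3a alone, -0.23 for siRFX7 alone and 0.07 for both together. For comparison, the median profile was 1.20, -0.19 and 0.02. MAML3, RPL13A, SCNN1A, TMEM129, MYO18A, RAB40B, SLC27A1, KDM6B and PI4K2A followed at distances of 0.373 to 0.407. RPL13A has processed copies in the genome and its value is uncertain. Among the 9 genes themselves the distances to their median ran from 0.252 for KLHL24 and 0.265 for TSPYL1 to 1.85 for FAM214A and 3.08 for TSPYL2. The 10 genes named above all lay nearer to that median than 7 of the 9 did. That number was a setting, the nearest 10 of 10855 genes compared, and not a count of all genes that near.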

How the data were processed

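PolyA RNA of 12 HCT116 libraries was sequenced, with 500 ng of total RNA per library per the labels. The authors deposited 4 DESeq2 tables, each comparing 2 groups; no values per library were used here. Per the submitters' processing notes the authors used hg38, Trimmomatic 0.39, cutadapt 2.10, SAMtools 1.10, featureCounts 1.6.5 and DESeq2 1.20.0; the aligner, annotation and strand setting are not given in the sources used here. The mean normalized count is a signal made by the authors, counts divided by size factors and averaged over libraries. Fold changes and standard errors are deposited on a log2 scale. The deposited test statistic is a score, the fold change over its standard error. The deposited p-value and adjusted p-value are those of the authors' Wald test, adjusted by Benjamini-Hochberg over the genes each table lists.

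Direction was checked by closure: reading the knockdown tables as siRFX7 over siControl left an error of at most 1.27e-14 around the 4 comparisons, against a median of 0.374 the other way. Group means were solved from the mean normalized count and the fold changes, with equal group sizes. Dispersions were solved from the standard errors at a size factor of 1, and the 4 values per gene spanned a median of 1.18% of their mean. Model SE and 95% intervals follow from these and cover the authors' model error. Genes were called at an adjusted p below 0.05 with no minimum fold. The difference of Nutlin-3a effects was tested with a z test, adjusted over all genes, which takes the standard errors as known. Simulated data used to try the test were drawn with those same standard errors, so they cannot check that assumption. The planned edgeR test was not used because the files hold no counts. Members and lists were chosen with earlier results of these data known. Genes named are the 9 targets, RFX7, all other RFX7 targets and paralogues listed, up to 5 per related list with a called difference or an absolute log2 value above 1, and the 10 most similar genes; markers and overlapping genes were added as checks. Coordinates are those of GENCODE 29, promoter letters those of RefSeq. Python 3.11.15, scipy 1.17.1 and pandas 2.3.3 were used. Alternatives tried were a threshold of 0.01, a minimum log2 value of 0.58, other adjustments, 2 rescalings and other motif letters.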

Additional observations from a re-analysis of the deposited data

Results flagged for a closer look

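For 8 of the 9 genes the Nutlin-3a effect differed between the siRNA treatments, by the two-sided z test on the 2 deposited log2 fold changes, adjusted over 23195 genes. The differences (siRFX7 minus siControl, log2) were -1.71 for PNRC1, -1.48 for TSPYL2, -1.26 for PDCD4, -0.91 for KLHL24, -0.79 for ABAT, -0.73 for FAM214A, -0.61 for TSPYL1 and -0.56 for IP6K2. The test called 2.92% of all genes below 0. The genes were chosen with these results known, so the calls are no independent support. TSPYL2 stands apart in form, since its siControl effect was -0.08 and its siRFX7 effect -1.56 in the authors' deposited tables.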

How the results depend on the processing

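Over 6 alternatives, 257 of the 270 values of single genes kept their side of the threshold, 11 were no longer called and 2 became called. Only the 2 rescalings change the log2 values, so only they could change a direction, and under them none changed sign. Under siRFX7, the Nutlin-3a comparison had 4 genes higher and 2 lower; a threshold of 0.01 or the Benjamini-Yekutieli adjustment left 1 lower, and a minimum log2 value of 0.58 left 1 higher (FAM214A) and 1 lower (TSPYL2). That minimum also left 6 of the 9 genes lower with siRFX7 in Nutlin-3a (without ABAT, IP6K2 and FAM214A), 3 of the 4 lower in DMSO (without TSPYL1) and 7 of the 8 called differences (without IP6K2). With siRFX7 in DMSO, centring on the median gene or scaling to equal group totals called 1 gene higher (ABAT) in place of 0. These rescalings shifted comparisons by -0.0569 to 0.0539 on the log2 scale. The half-site count of 3 genes became 0 with CGTTGCNA or GTTGCCA, and 1 gene had at least 12 of 14 letters of the palindrome, a setting added after the sequences were seen. Of the 10 most similar genes, 9 were shared at a mean of at least 500. No paired analysis was possible because the tables hold no values per library; for the same reason leaving out replicates and the edgeR fits were not run. Depth limits PIK3IP1 most, with standard errors of 0.48 to 0.55 on the deposited log2 fold changes.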

Other observations

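Among the related genes, INPP5D, which encodes a phosphatase that removes the lipid product of PI3K, had a difference of Nutlin-3a effects of -2.40 (standard error 0.21), larger in size than that of any of the 9 genes. Unlike the 9 genes, it was not lower with siRFX7 in Nutlin-3a. The recovered means were 35.7 normalized counts with DMSO and 597 with Nutlin-3a in siControl cells, and 220 and 695 in siRFX7 cells. The gene rose by 2.62 with siRFX7 at rest (authors' deposited table), while its siRFX7 effect in Nutlin-3a was 0.22, so the difference came from the DMSO groups. PIK3R3, by contrast, had means of 64.4, 141, 94.6 and 64.3 normalized counts in the same order, so that siRFX7 raised it at rest and lowered it in Nutlin-3a. KRT15, an epithelial keratin, resembled INPP5D with means of 220, 919, 405 and 943 and a difference of -0.84. A difference below 0 alone therefore does not tell a gene that loses its induction from one that starts higher at rest. Among the 9 genes, ABAT (0.31), FAM214A (0.18) and IP6K2 (0.10) also lay above 0 with siRFX7 at rest. None of them was called in the authors' deposited table, although the 95% interval of ABAT (0.04 to 0.57) lay above 0. Part of the point difference of ABAT, FAM214A and IP6K2 thus lay in the DMSO groups.

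ITPKA, an inositol trisphosphate kinase, had a difference of the other sign at 0.76 (standard error 0.18). Its means were 256 normalized counts with DMSO and 157 with Nutlin-3a in siControl cells, and 404 and 418 in siRFX7 cells. Nutlin-3a lowered it by 0.71 on the log2 scale with siControl in the authors' deposited table, and with siRFX7 the effect was 0.05.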
